A study of Mus musculus with 10 samples.

Results

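In NSCs, 218 of the 1389 Ring1b peaks overlapped an ESC Ring1b peak by at least 1 bp and shared no base with an NSC H3K27me3 peak. They were chosen by these overlaps of the NSC Ring1b, ESC Ring1b and NSC H3K27me3 lists, so what those lists show at them is a description and not a finding. The 218 regions were places where Ring1b was called in both cell types while the mark that often accompanies it was not called in NSCs. They covered 402 kb of the mm9 genome. Another 281 NSC Ring1b peaks also overlapped ESC Ring1b but did touch an NSC H3K27me3 peak, and they serve as the comparison group throughout ("peaks with H3K27me3"). The remaining NSC Ring1b peaks had no ESC Ring1b peak beneath them, 786 without and 104 with NSC H3K27me3. The 6 peak lists of the study held 9769 peaks in all.

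Ring1b is the catalytic subunit of the Polycomb complex PRC1, an E3 ligase that ubiquitinates histone H2A. Ezh2 is the methyltransferase of PRC2 and deposits H3K27me3, and Cbx2 is a PRC1 subunit whose chromodomain binds that mark. PRC1 can also be brought to chromatin by variant complexes that lack a Cbx subunit, so Ring1b and H3K27me3 are known to overlap widely but not wholly. Both complexes are best known in ESCs for occupying CpG-rich start sites of developmental genes.

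The ESCs were J1 cells, a mouse line grown on embryonic fibroblast feeders with serum and leukemia inhibitory factor, and the feeders were depleted at harvest. The NSCs were neural stem cells obtained by differentiating J1 ESCs in culture and were kept on gelatin with EGF and FGF at 10 ng/ml. No treatment is given for either cell type beyond standard growth, and both were cross-linked in 1% formaldehyde for 10 min. Chromatin immunoprecipitation was for Ring1b (an antibody to RNF2, its other name) and H3K27me3 in both cell types and for Ezh2 and Cbx2 in ESCs. For Ring1b the paper adds a step with the cross-linker EGS before formaldehyde, so the Ring1b lists differ from the others in fixation as well as in target. Each cell type and target had 1 library, so no difference below has a replicate check and no p-value is given.

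The lists hold the start and end of each peak, on a grid of 200 bp and never narrower than 1000 bp, with no height or score. How deeply each library was sequenced is unknown, so the absence of an NSC H3K27me3 peak means only that no window passed the authors' threshold. As a check of the cell labels, no start site of 8 ESC marker genes and none of 8 NSC marker genes lay in an NSC Ring1b peak. In ESCs, the start sites of Nes, Olig2 and Pax6 among the 8 NSC markers and of Esrrb among the 8 ESC markers lay in a Ring1b peak. In NSCs, Sox2, a gene that neural stem cells express, and Esrrb had a start site in an H3K27me3 peak. Peak lists carry no expression, so the labels cannot be checked further from them.

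Some of the 218 regions stood right beside H3K27me3. In total 5 adjoined an NSC H3K27me3 peak with 0 bp between, and the first 3 by position lay on chromosome 8 about 5030 bp from the start of Gm5607, on chromosome 12 at the start of Stxbp6, and on chromosome 15 at 6867 bp from Hoxc13. On the other side of the rule, the smallest shared stretch was 200 bp, in 4 peaks, the first 3 by position being at Foxi3, 1266 bp from Col2a1 and 14484 bp from Uncx. Of the 218 regions, 21 lay within 1 kb of a marked peak, 33 within 3 kb and 41 within 10 kb. The median distance was 480200 bp, and 150 regions lay more than 100 kb away. Among the 786 NSC Ring1b peaks with neither ESC Ring1b nor NSC H3K27me3 the median was similar, 523400 bp, so this distance is not particular to the regions.

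Sequences just upstream of a start site are shown for the CpGs at promoters whose start site lies in these regions. One is given for a wide region with a protein-coding start site (the widest reported here) in each of the 4 most frequent ESC states, and one for the widest peak with H3K27me3, from the mm9 genome on the strand of the gene, 5′ to 3′, each ending at the base before the start site. CpG dinucleotides are in capitals.
Tcfap2a (over ESC H3K27me3, Ezh2 and Cbx2; chr13:40825788-40826037, minus strand): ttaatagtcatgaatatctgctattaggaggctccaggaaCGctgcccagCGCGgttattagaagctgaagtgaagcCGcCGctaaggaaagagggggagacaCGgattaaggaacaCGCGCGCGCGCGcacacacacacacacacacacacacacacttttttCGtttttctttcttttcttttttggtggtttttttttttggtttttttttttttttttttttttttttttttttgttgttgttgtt
A930038C07Rik (over ESC H3K27me3 and Ezh2; chr6:65621334-65621583, plus strand): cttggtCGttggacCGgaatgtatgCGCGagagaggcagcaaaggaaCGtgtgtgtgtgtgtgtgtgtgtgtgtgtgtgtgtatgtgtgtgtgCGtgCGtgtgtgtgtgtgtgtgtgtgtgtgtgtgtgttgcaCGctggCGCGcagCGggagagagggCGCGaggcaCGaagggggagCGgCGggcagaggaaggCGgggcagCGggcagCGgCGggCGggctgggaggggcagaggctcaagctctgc
Ptprd (over ESC H3K27me3 alone; chr4:76095885-76096134, minus strand): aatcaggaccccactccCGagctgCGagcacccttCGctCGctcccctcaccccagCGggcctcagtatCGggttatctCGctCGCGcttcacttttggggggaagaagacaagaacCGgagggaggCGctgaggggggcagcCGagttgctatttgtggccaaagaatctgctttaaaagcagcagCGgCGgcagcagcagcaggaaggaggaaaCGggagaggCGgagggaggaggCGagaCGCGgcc
4932442L08Rik (over none of the 3 ESC lists; chrX:91612117-91612366, minus strand): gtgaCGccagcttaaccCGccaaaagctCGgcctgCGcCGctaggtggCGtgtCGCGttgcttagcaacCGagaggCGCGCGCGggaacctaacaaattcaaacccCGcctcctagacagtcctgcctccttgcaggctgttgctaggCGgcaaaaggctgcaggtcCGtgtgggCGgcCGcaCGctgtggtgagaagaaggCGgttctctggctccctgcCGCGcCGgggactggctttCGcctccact
Hoxd11 (peak with H3K27me3; chr2:74519806-74520055, plus strand): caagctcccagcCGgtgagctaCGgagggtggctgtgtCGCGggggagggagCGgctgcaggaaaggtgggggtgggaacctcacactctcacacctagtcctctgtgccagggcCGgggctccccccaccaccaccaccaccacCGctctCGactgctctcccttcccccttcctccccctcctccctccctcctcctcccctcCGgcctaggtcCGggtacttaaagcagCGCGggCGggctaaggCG
All of these stretches lie outside annotated exons. The one at Ptprd lies upstream of an inner start site of the gene and runs past the end of its region at 76096000. The 250 bases at Tcfap2a, upstream of the inner of its annotated start sites in the region, held 13 CpGs, those at A930038C07Rik 21, at Ptprd 19 and at 4932442L08Rik 24, while those at Hoxd11 held 14. The ratio of observed to expected CpGs, which is 1 where CpG is as frequent as the C and G content predicts, was 1.30 at Tcfap2a, 1.09 at A930038C07Rik, 0.773 at Ptprd, 0.915 at 4932442L08Rik and 0.481 at Hoxd11. These are 5 single stretches. The regions as wholes had lower ratios at Tcfap2a (0.656), A930038C07Rik (0.621) and 4932442L08Rik (0.445), while that at Ptprd (0.727) was near the ratio of its stretch.

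The first question was what Polycomb state these regions had in ESCs. In ESCs, 114 of 218 (52.3%, 95% interval 45.4 to 59.1) lay over an H3K27me3 peak, against 223 of the 281 peaks with H3K27me3 in NSCs (79.4%, 74.2 to 83.9). An ESC Ezh2 peak lay over 80 (36.7%, 30.3 to 43.5) against 216 (76.9%), and an ESC Cbx2 peak over 51 (23.4%, 17.9 to 29.6) against 200 (71.2%). All of the ESC marks were called at 38 regions (17.4%, 12.6 to 23.1) against 172 (61.2%), and none of them at 87 (39.9%, 33.4 to 46.7) against 32 (11.4%, 7.92 to 15.7). The intervals of both groups did not overlap in any of these shares. All intervals are exact (Clopper-Pearson); they treat peaks or genes as independent and so measure counting error alone.

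For background, the share over ESC H3K27me3 was 25.0% among all 1389 NSC Ring1b peaks and 67.5% among the 499 that overlap ESC Ring1b. The corresponding shares were 21.5% and 59.3% for Ezh2, 18.6% and 50.3% for Cbx2, 15.3% and 42.1% for all of them, and 71.6% and 23.8% for none. Read against the 499, the 218 regions were poorer in every ESC mark, most of all in Cbx2, and richer in regions with none. Any of the ESC marks lay over 131 regions (60.1%), against 28.4% of all NSC Ring1b peaks and 76.2% of the 499. The regions thus held 114 peaks with H3K27me3 in ESCs and no NSC H3K27me3 peak, and 104 with no H3K27me3 peak over them in either cell type.

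**Figure D1:**
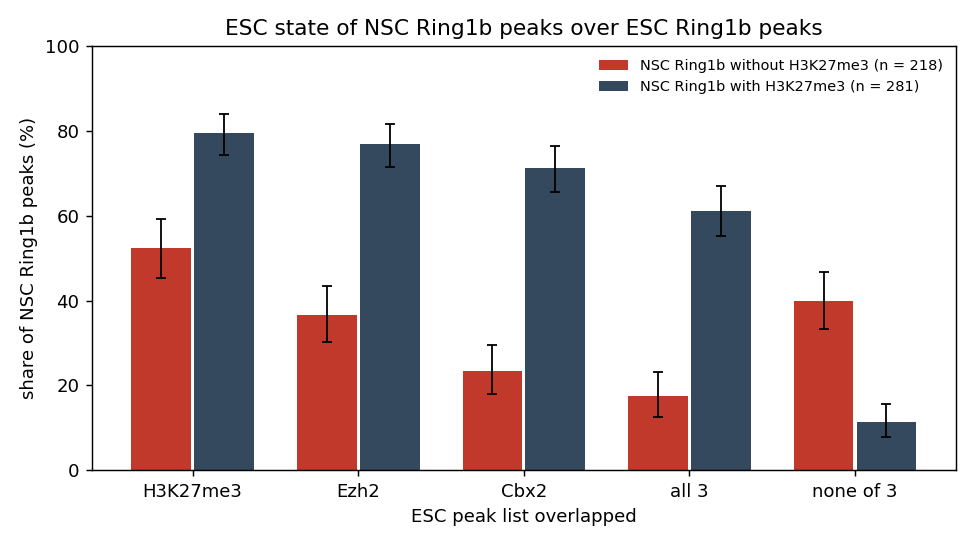
Share of NSC Ring1b peaks (y axis, percent) that overlap each ESC peak list (x axis), for the 218 peaks without and the 281 with NSC H3K27me3. Bars start at 0 and error bars are exact 95% intervals over peaks. The red bars are lower for H3K27me3 (52.3 against 79.4%), Ezh2, Cbx2 and all 3, and higher for none (39.9 against 11.4%).

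The ESC marks nested within each other in part. Besides the 38 regions over all of the lists, 32 lay over H3K27me3 and Ezh2, 40 over H3K27me3 alone, 8 over Ezh2 alone, 7 over Cbx2 alone, 4 over H3K27me3 and Cbx2 and 2 over Ezh2 and Cbx2. Of the 51 regions over ESC Cbx2, 38 thus had both other marks as well. Of the 87 with none, 11 stood in an ESC Ring1b peak that touched one of the marks elsewhere along its length, and over the whole ESC Ring1b peak 132 of the 218 regions had ESC H3K27me3.

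The contrast had the same direction among peaks of equal width up to 3800 bp, though the intervals were not always apart. At 1400 to 1800 bp, ESC H3K27me3 lay over 58.8% of 80 regions (47.2 to 69.6) against 73.7% of 38 peaks with H3K27me3 (56.9 to 86.6), Ezh2 lay over 38.8% (28.1 to 50.3) against 76.3% (59.8 to 88.6), and Cbx2 over 26.2% (17.0 to 37.3) against 65.8% (48.6 to 80.4). At that width none of the lists lay over 35.0% of the regions (24.7 to 46.5) against 13.2% (4.41 to 28.1), with overlapping intervals. At 2000 to 3800 bp, none of the lists lay over 47.9% of 48 regions (33.3 to 62.8) against 13.2% of 76 (6.49 to 22.9), with intervals apart. At these widths the intervals for Ezh2 and Cbx2 did not overlap, while those for H3K27me3 overlapped at both 1400 to 1800 bp and 2000 to 3800 bp. At 1000 to 1200 bp, ESC H3K27me3 lay over 48.1% of 81 regions (36.9 to 59.5) against 75.9% of 29 (56.5 to 89.7), and at this width the intervals overlapped for each mark. None of the lists lay over 43.2% (32.2 to 54.7) against 24.1% (10.3 to 43.5) there, also with overlapping intervals. At 4000 bp and over there were only 9 regions, against 138 peaks with H3K27me3. ESC H3K27me3 lay over 77.8 against 87.0%, Ezh2 over 55.6 against 85.5%, Cbx2 over 88.9 against 84.8% and none over 11.1 against 7.25%, with overlapping intervals.

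The ESC Ring1b peak beneath the regions was narrower, and ESC Ring1b coverage fell faster away from their centres. Distances between ESC Ring1b peaks were not computed. At their centres, 94.0% of the 218 regions were covered by ESC Ring1b, and 2000 bp to either side this fell to 31.2% upstream in coordinate and 32.1% downstream. In the peaks with H3K27me3 the same values were 92.9%, 68.0% and 67.3%. Both groups were required to overlap ESC Ring1b, so its coverage at the centres is a description. ESC H3K27me3 covered 41.7% of the centres of the regions and 6.42% at 5000 bp downstream, against 55.2% and 18.9%. NSC H3K27me3 covered 5.05% of them at 5000 bp upstream and 5.50% at 5000 bp downstream. The rule used this list to choose the regions, so these shares are a description and nothing is read from them.

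**Figure D2:**
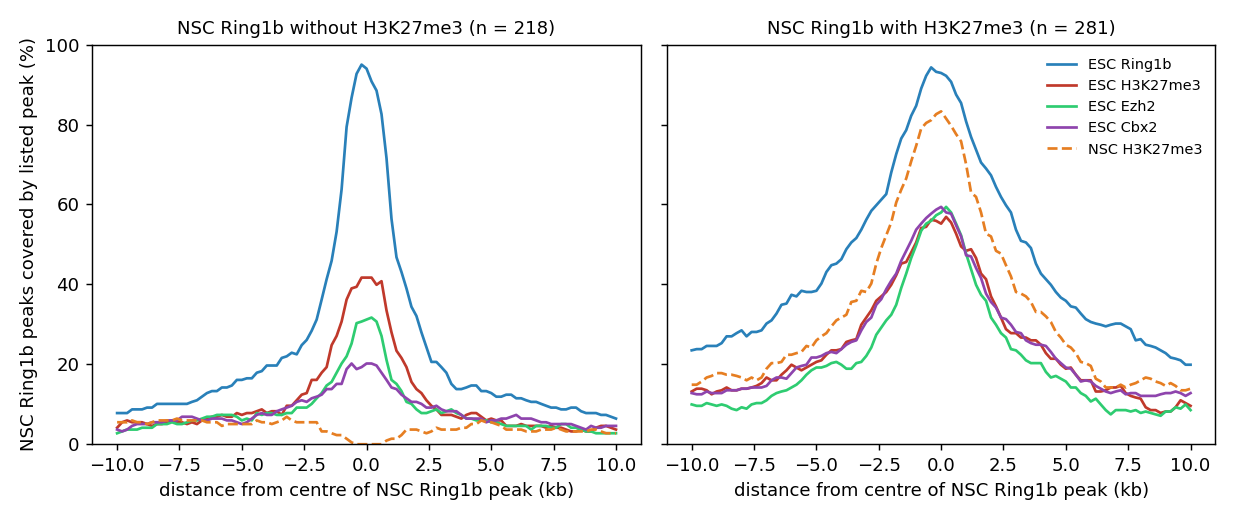
Share of peaks (y axis, percent) covered by each list at each distance from the centre of the NSC Ring1b peak (x axis, kb), in steps of 200 bp, for 218 peaks without (left) and 281 with NSC H3K27me3 (right). ESC Ring1b covers 94.0 and 92.9% of the centres, and at 2 kb from the centre falls to 31.2 to 32.1% on the left and 67.3 to 68.0% on the right. The dip of NSC H3K27me3 at the left centre is set by the rule, which also required both groups to overlap ESC Ring1b.

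The 218 regions were narrower than the peaks with H3K27me3 but not narrow for an NSC Ring1b peak. Their median width was 1600 bp (quartiles 1200 and 2000), against 3800 bp (2000 and 7200) for peaks with H3K27me3, 1400 bp for all NSC Ring1b peaks and 1200 bp for the 786 with neither ESC Ring1b nor NSC H3K27me3. The narrowest width in the list, 1000 bp, was that of 43 (19.7%), against 15 (5.34%) of the peaks with H3K27me3, 29.0% of all and 42.7% of the 786. A narrow peak has less chance to touch another peak, so part of this difference is set by the rule. The ESC Ring1b peak under each region had a median width of 2600 bp against 7800 bp. In NSCs 169 regions were narrower than their ESC Ring1b peak, 12 as wide and 37 wider, and 143 (65.6%, 58.9 to 71.9) lay wholly inside it, near the 62.9% of the 499 peaks over ESC Ring1b. The 215 ESC Ring1b peaks beneath the regions held 1 region each except 4 that held 2, and 19 regions shared their ESC peak with an NSC Ring1b peak that had H3K27me3.

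Width also differed by ESC state. Regions over all of the ESC lists had a median NSC width of 1800 bp in an ESC Ring1b peak of median 8800 bp, and only 2 of these 38 (5.26%, 0.644 to 17.7) were wider in NSCs. Regions over none of the lists had a median of 1600 bp in an ESC peak of 1800 bp, and 27 of 87 (31.0%, 21.5 to 41.9) were wider in NSCs. Those over H3K27me3 and Ezh2 measured 1200 bp in 2800 bp, and those over H3K27me3 alone 1400 bp in 2200 bp. By these medians, regions without an ESC mark were about as wide in both cell types, while those with the full set covered a small part of a broad ESC peak. In peaks with H3K27me3 the medians were 5000 bp in 11200 bp over all of the lists, and 2700 bp in 2200 bp over none. In both groups the ESC peak was thus the broader one in the full state, so this is not particular to the regions.

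**Figure D3:**
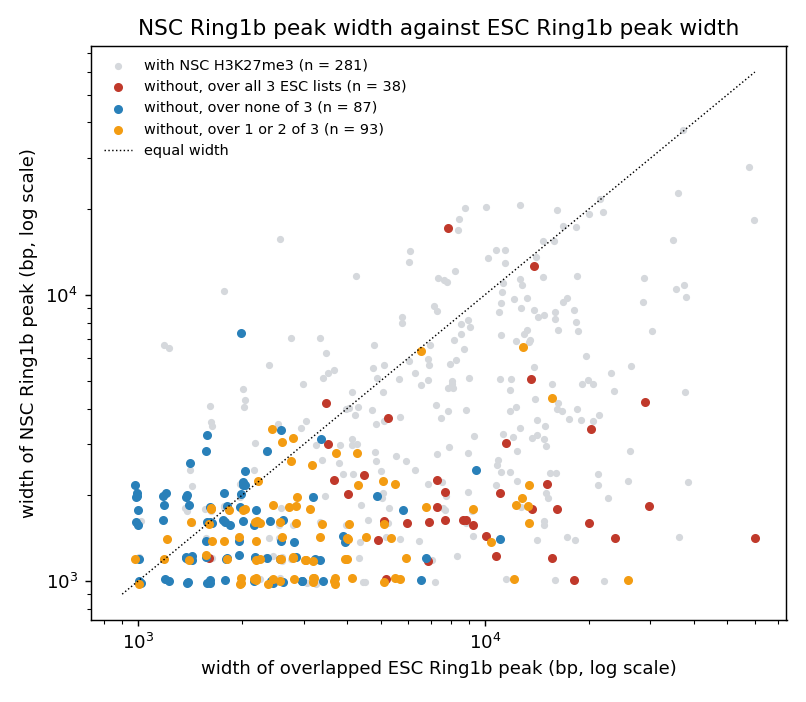
Width of each NSC Ring1b peak (y axis, bp, log scale) against the ESC Ring1b peak it overlaps (x axis, bp, log scale), with points jittered slightly because widths come in steps of 200 bp. Coloured points are the 218 regions by ESC state, grey points the 281 peaks with NSC H3K27me3, and the dotted line marks equal width. Red points (all 3 ESC lists) lie mostly far below the line and blue points (none) lie around it.

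Start sites of protein-coding genes were common in the regions. One lay inside 122 of 218 (56.0%, 49.1 to 62.7), against 165 of the 281 peaks with H3K27me3 (58.7%), 57.5% of the 499 peaks that overlap ESC Ring1b and 30.5% of all NSC Ring1b peaks. Within 1 kb the share was 161 of 218 (73.9%) against 69.0% in peaks with H3K27me3, 71.1% of the 499 and 39.4% of all. A start site of any annotated gene, coding or not, lay inside 138 (63.3%), against 64.7% of the 499 and 34.6% of all. Only 14 regions (6.42%) had none within 10 kb, against 7.82% of the 499 and 36.1% of all. The regions were thus as often at start sites as other peaks kept over ESC Ring1b. At equal width up to 3800 bp their share was higher, 60.0% (48.4 to 70.8) against 39.5% (24.0 to 56.6) at 1400 to 1800 bp, 62.5% (47.4 to 76.0) against 48.7% (37.0 to 60.4) at 2000 to 3800 bp, and 48.1% (36.9 to 59.5) against 27.6% (12.7 to 47.2) at 1000 to 1200 bp, but the intervals overlapped each time. At 4000 bp and over it was lower, 5 of 9 (55.6%, 21.2 to 86.3) against 105 of 138 (76.1%, 68.1 to 82.9). The centre of the peak fell in an exon in 76 regions (34.9%), against 27.3% of the 499 and 14.8% of all NSC Ring1b peaks. It fell in an intron in 68 (31.2%, against 34.1% and 33.1%) and outside protein-coding genes in 74 (33.9%, against 38.7% and 52.1%).

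The start sites belonged to 126 protein-coding genes, 0.567% of the 22208 annotated, against 182 (0.820%) in peaks with H3K27me3, 446 (2.01%) in all NSC Ring1b peaks and 1748 (7.87%) in all ESC Ring1b peaks. The 126 and the 182 genes shared Gnal and Pitx1, which have more than one start site. A start site of 55 of the 126 genes (43.7%) lay in an ESC H3K27me3 peak, against 70.3% of the genes in peaks with H3K27me3, 41.3% in all NSC Ring1b peaks, 50.4% in all ESC Ring1b peaks and 5.09% of all protein-coding genes. In addition 4 genes, Dlk2, Gnal, Pcdha11 and Pitx1, had another start site in an NSC H3K27me3 peak. GENCODE gives each alternative start of a gene as a site of its own.

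The genes differed in kind by the ESC state of the region. Of the 447 genes on 6 lists of transcription factors (Hox, other homeobox, forkhead with T-box and bHLH, zinc finger and AP-2, neural stem cell factors and markers, and nuclear receptors), which are 2.01% of all protein-coding genes, 19 started in the regions. That is 15.1% (9.33 to 22.5) of the 126 genes, against 108 of 182 (59.3%, 51.8 to 66.5) for peaks with H3K27me3, 29.4% for genes in all NSC Ring1b peaks and 16.1% for genes in all ESC Ring1b peaks. Among regions over all of the ESC lists, 14 of 21 genes were on the lists (66.7%, 43.0 to 85.4). Among those over H3K27me3 and Ezh2 it was 2 of 17 (11.8%, 1.46 to 36.4), over H3K27me3 alone 1 of 25 (4.00%, 0.101 to 20.4) and over none 1 of 57 (1.75%, 0.0444 to 9.39). In peaks with H3K27me3 the share was also highest over all of the lists, 100 of 138 (72.5%, 64.2 to 79.7), and lowest over none, 1 of 12 (8.33%, 0.211 to 38.5). Within each of these 4 ESC states the intervals of peaks with and without NSC H3K27me3 overlapped, while over all states together they did not.

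**Figure D4:**
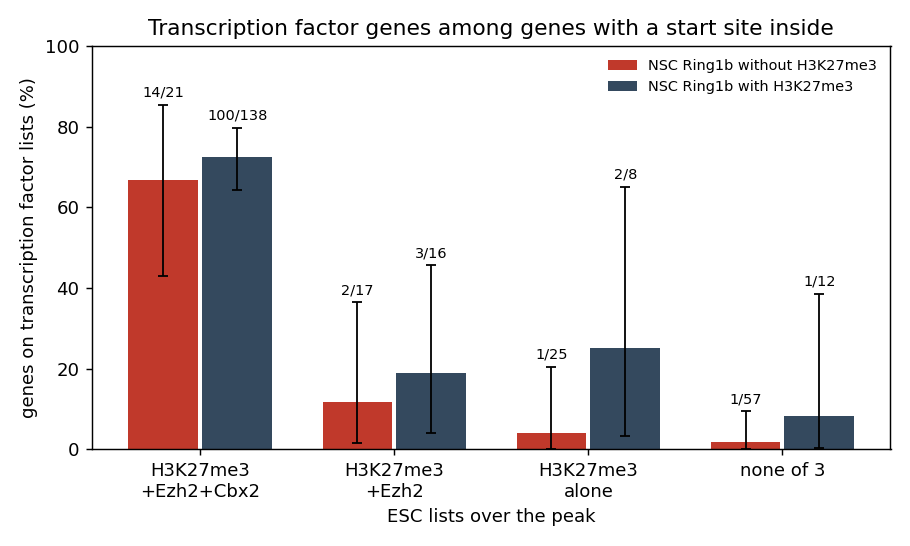
Share of genes (y axis, percent) that stand on 6 transcription factor lists among protein-coding genes with a start site inside the peak, by the ESC lists over the peak (x axis). Bars start at 0, error bars are exact 95% intervals over genes and numbers give listed over all genes. In regions without NSC H3K27me3 (red) the share is 66.7% where all 3 ESC lists lie over the peak and 1.75% where none does.

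Several of the widest regions stood at developmental transcription factors. Tcfap2a (Tfap2a), the AP-2 factor of neural crest and epidermis, had 12400 bp on chromosome 13 (40818401 to 40830800) over an ESC Ring1b peak of 13600 bp, and ESC H3K27me3, Ezh2 and Cbx2 covered 48.4%, 51.6% and 75.8% of it. An NSC H3K27me3 peak stood 1600 bp away.

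Isl1, a LIM homeobox factor of motor neurons and heart, had 6400 bp within an ESC Ring1b peak of 12600 bp, with ESC Cbx2 over 53.1% of it, neither ESC H3K27me3 nor Ezh2, and NSC H3K27me3 only 400 bp away. Sp9, a zinc finger factor of the ventral forebrain, had 5000 bp of an ESC peak of 13600 bp. Pou3f1, a POU factor, had 3800 bp of 5200 bp, and NSC H3K27me3 was 1472600 bp away. Sp9 and Pou3f1 lay under all of the ESC lists and their CpG ratios were 0.882 and 0.869, against 0.656 over the long Tcfap2a region.

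Other regions over all of the ESC lists covered Tbx15 (3000 bp, a T-box factor), Nr3c2 (3000 bp, the mineralocorticoid receptor), Otx1 (2200 bp of an ESC peak of 14800 bp, a head homeobox factor) and Cyp24a1 with Pfdn4 (2200 bp, an enzyme of vitamin D catabolism and a prefoldin subunit). Tbx15 and Otx1 lay 3000 bp and 2800 bp from NSC H3K27me3, while Nr3c2 and Cyp24a1 lay 1532000 bp and 1727600 bp away. In this state 14 of 38 regions (36.8%, 21.8 to 54.0) were within 10 kb of an NSC H3K27me3 peak, compared with 11 of 87 (12.6%, 6.48 to 21.5) in the state with none. Without the regions within 10 kb of the mark, 9 of 15 genes in the full state were on the 6 transcription factor lists (60.0%, 32.3 to 83.7). Of all 114 genes, 12 were on these lists (10.5%, 5.56 to 17.7), which do not hold every transcription factor.

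Further listed transcription factors in the full state were Sp5, Insm1, Hoxa7, Irx5, Tbx4, Pitx1 and Zic2. Several of their regions were small parts of broad ESC Ring1b peaks, 1400 bp of 59000 bp at Hoxa7, 1400 bp of 23400 bp at Zic2 and 2000 bp of 10800 bp at Irx5. The ESC Ring1b peaks were less broad at Insm1 (2000 bp of 7600 bp) and Sp5 (1200 bp of 6800 bp). Hoxa7 was the only one of 39 Hox genes with a start site in these regions, against 25 in peaks with H3K27me3, and it lay 6800 bp from the mark. Of 142 other homeobox genes, 8 started in the regions (among them En2, Irx5, Isl1, Otx1, Pitx1, Pou3f1 and Zfhx4) against 48. Of the 69 zinc finger and AP-2 factors the counts were closer, 6 (Insm1, Prdm2, Sp5, Sp9, Tcfap2a and Zic2) against 8, and of 138 forkhead, T-box, Sox and bHLH factors they were 3 (Foxp2, Tbx15 and Tbx4) against 25.

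Outside the full state, the listed factors were Isl1 and 4 others. En2 and Foxp2 lay over ESC H3K27me3 and Ezh2 without Cbx2, Zfhx4 over H3K27me3 alone, and Prdm2, a zinc finger protein of the PR domain family, over none. None of the 38 neural stem cell factors and markers had a start site inside the regions. However, only 3 of them started in any NSC Ring1b peak, 2 of these in peaks with H3K27me3, against 24 in an ESC Ring1b peak. Pou3f3 and Lhx2, both on this list, had a region 210 bp and 2828 bp from their start sites.

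Regions over none of the ESC lists stood mostly at genes that are not developmental regulators on these lists. The widest, 7400 bp on chromosome X at Apoo (a mitochondrial inner membrane protein) and 4932442L08Rik, was broader than its ESC Ring1b peak of 2000 bp and had a CpG ratio of 0.445. Gas1, a co-receptor for hedgehog ligands, had 3200 bp over 3400 bp in ESCs, and Zfp36l2, which promotes the decay of AU-rich mRNAs, had 3200 bp over 1600 bp. At 2200 bp followed Mga, Hdac2, 2410016O06Rik, and Gpc2 with Stag3, a glypican and a meiotic cohesin subunit, and at 2000 bp B230208H17Rik. Of these 8, chosen as the widest in NSCs, all but Gas1 and B230208H17Rik were wider in NSCs than the ESC peak. That choice favours wide NSC peaks, and over the whole state 27 of 87 regions (31.0%) were wider. All 8 lay at least 315400 bp from an NSC H3K27me3 peak.

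A few genes for Polycomb and chromatin proteins started in the regions. Of 38 genes for Polycomb subunits, 2 did so (5.26%, beside 0.567% of all protein-coding genes), and 0 started in peaks with H3K27me3. In all, 6 of the 38 started in NSC Ring1b peaks and 9 in ESC Ring1b peaks. Over all genes, 126 of the 446 with a start in NSC Ring1b peaks started in the regions, so nothing is read from these counts. Bmi1, a PRC1 subunit, had an 1800 bp region over all of the ESC lists. A second region of 4200 bp lay 10 kb further on in the same ESC Ring1b peak of 29600 bp, the nearer of both to NSC H3K27me3 at 4800 bp. Mga, a subunit of a variant PRC1 complex that also binds Max, had a region of 2200 bp at its start over none of the ESC lists, 567400 bp from NSC H3K27me3. Another of 2400 bp, also over none, lay 23164 bp from that start. Hdac2, a histone deacetylase, was not on the Polycomb list.

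Cdkn2a, the locus of a CDK inhibitor that Polycomb is known to repress, had the most regions in a group. It held 3 within 13.4 kb of chromosome 4 (88915201 to 88928600), of 6400, 1000 and 2800 bp, over ESC Ring1b peaks of 6600 and 3800 bp. ESC H3K27me3 covered 18.8% of the first and none of the others, ESC Cbx2 covered 28.1% of the first and 42.9% of the third, and ESC Ezh2 touched none. The nearest NSC H3K27me3 peak was 322800 bp away. Cdkn2a was the only one of 42 cell cycle genes to start in the regions, and the third region had a CpG ratio of 0.362, the lowest of all regions with a start site.

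Few genes of the signalling and neuronal lists started in the regions. Inhbb, a subunit of inhibins and activins, was the 1 of 67 BMP and TGF-beta genes with a start in the regions. Gas1 was the 1 of 14 hedgehog genes, and Zfp36l2 the 1 of 36 immediate early and stress genes. Axon guidance and adhesion genes gave 4 of 154, Nrp2, Sema5b, Pcdh11x and Pcdha11, and ion channels and receptors 1 of 230, Kcnj4. None of 30 Notch, 66 Wnt, 74 FGF and MAP kinase, 23 pluripotency, 168 ribosomal protein, 67 histone or 19 housekeeping genes started in them. Beside these counts, 0.567% of all protein-coding genes started in the regions, so lists of this size can hold none or 1 at that share, and nothing is read from them.

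A few regions lay far from any start site. The 5 widest with no annotated start within 10 kb were 4200 bp on chromosome 2, 62211 bp from Commd3 and over all of the ESC lists, 3400 bp on chromosome 5, 42036 bp from En2, 2000 bp on chromosome 18, 52112 bp from the start of Psd2 with its centre in an exon, 1800 bp on chromosome 8, 15976 bp from the start of Kbtbd11, also centred in an exon and over ESC H3K27me3 and Ezh2, and 1600 bp on chromosome 2, 28414 bp from the protein-coding start of Apbb1ip. The last, the one near En2 and the one near Psd2 had none of the ESC marks. In 2 of the 218 regions fewer than 50% of sampled 32-base words occurred once in the genome, with 8.47% at the lower, so the mapping of tags there is uncertain.

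The regions were rich in GC and CpG. Their median GC content was 59.4% (quartiles 52.8 and 64.5), against 51.8% (48.4 and 57.4) for peaks with H3K27me3 and 46.1% for all NSC Ring1b peaks. The median CpG ratio was 0.728 (0.604 and 0.829) against 0.597 (0.515 and 0.691) and 0.383. In the 786 NSC Ring1b peaks with neither ESC Ring1b nor NSC H3K27me3 beneath them, the median ratio was 0.197.

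Composition moved with width. At 1000 to 1200 bp the median CpG ratio was 0.760 in the regions and 0.754 in 29 peaks with H3K27me3. At 1400 to 1800 bp it was 0.731 against 0.672, at 2000 to 3800 bp 0.685 against 0.625, and above 4000 bp 0.457 in 9 regions against 0.565. The difference over all widths was thus larger than at any single width from 1000 to 3800 bp. The quartiles of both groups overlapped at each width.

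**Figure D5:**
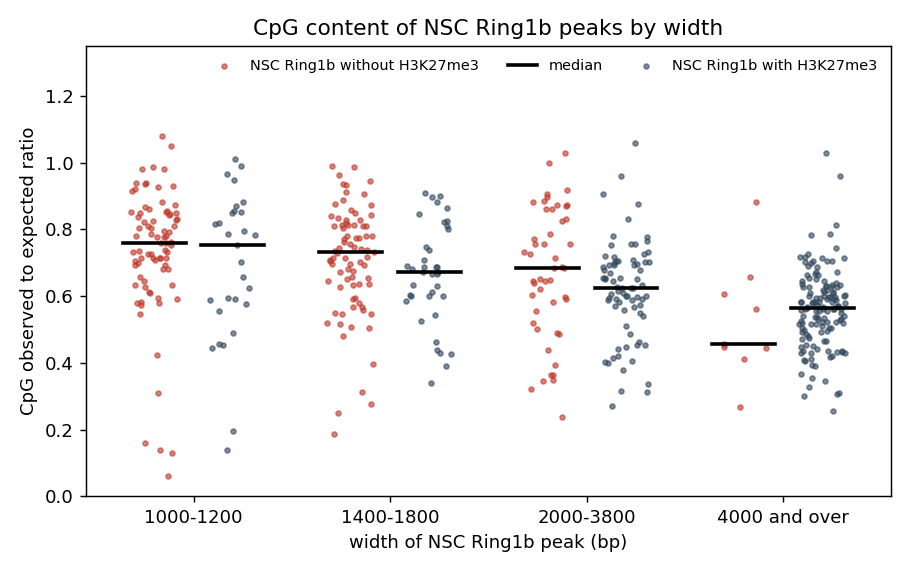
CpG observed to expected ratio (y axis) of each NSC Ring1b peak by its width (x axis, bp), without (red) and with NSC H3K27me3 (dark), with black bars for medians. The medians are 0.760 and 0.754 at 1000 to 1200 bp, and fall with width in both groups.

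By ESC state, the median CpG ratio was 0.690 in regions over all of the ESC lists, 0.743 over H3K27me3 and Ezh2, 0.758 over H3K27me3 alone and 0.753 over none, and the interquartile ranges overlapped. Regions with a start site had a median ratio of 0.761 and those without one 0.661. The full ESC state and the state with none, which differed most in their share of genes on the transcription factor lists, thus had CpG ratios with overlapping quartiles.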

How the data were processed

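Peak lists of 6 ChIP-seq libraries from J1 ESCs and NSCs derived from them were analysed, 1 for each target in a cell type. The 4 input libraries were not used here. The lists deposited by the authors give intervals in mm9 coordinates without scores. Paired-end reads were aligned with Bowtie according to the paper, while the submitters' processing notes name BWA. The authors called enrichment over input in windows of 1 kb, moved in steps of 200 bp, under a negative binomial model tuned by inspecting the calls, and joined windows up to 1 kb apart. For Ring1b the paper adds an EGS cross-linking step. Depth per library is unknown.

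Overlaps of at least 1 bp, start sites and composition were computed in Python 3.11.15 (numpy 2.4.6, scipy 1.17.1, pysam 0.24.0) with the mm9 (NCBIM37) sequence and its GENCODE annotation. The CpG ratio is the count of CG times the length over the product of C and G counts. Uniqueness was the share of 32-base words, sampled every 20 bp, that occur once in the genome. Intervals on shares are exact 95% Clopper-Pearson intervals; with 1 library per group no test was run. Overlaps were tested on simulated peaks: all 200 planted with 1 shared base were found, and 0 of 200 planted without one. The members, gene lists and comparisons were chosen with earlier results of these data known, and the ESC and NSC Ring1b and NSC H3K27me3 lists chose the members. Genes named are the 8 widest regions with a start site, overall and in the full and empty ESC states, every listed gene with a start in a region, the 5 widest regions far from genes, and the regions at the edge of the rule; other genes were named after their values were seen. Gene names follow the annotation, and current names were matched for list membership. The values of a few genes that the rule covers are not reported here.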

Additional observations from a re-analysis of the deposited data

How the results depend on the processing

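Of 76 repeats of the 9 main values, 58 stayed within the interval of the value reported (counts within 1.5 times) and 18 moved. Applying the rule to lists that were all cut to peaks at least 2 kb wide gave 69 regions. Narrower NSC H3K27me3 peaks were cut too, so the 69 are not a part of the 218, of which 57 were that wide. Narrower ESC peaks were also cut, which changes the ESC shares. The 69 had a median width of 2800 bp, ESC H3K27me3 over 40.6% and Cbx2 over 36.2%. Their median GC content was 51.5% and their median CpG ratio 0.621. Reading the ESC state along the whole ESC Ring1b peak raised the share over ESC H3K27me3 to 60.6%. A start site within 1 kb was found for 73.9%, and the most upstream start of each gene alone for 47.7%. In the central 1 kb the median GC content was 61.8% and the CpG ratio 0.756. Of the alternatives added after the data were seen, leaving out regions within 10 kb of NSC H3K27me3 gave Cbx2 over 16.4% and a GC content of 61.2%, and regions of 2000 to 3800 bp gave ESC H3K27me3 over 43.8%, Cbx2 over 31.2%, none over 47.9%, a GC content of 53.9% and a CpG ratio of 0.685; the cause was not tested. An overlap of at least 50%, exclusion within 3 kb of the mark, autosomes alone and merging within 3 kb moved none of the main values. No paired analysis was possible because each group has 1 library. Without replicates or depth, the calling threshold of the authors limits every absence of a peak.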

Other observations

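Several regions over ESC H3K27me3, Ezh2 and Cbx2 held no protein-coding start site but lay close to one of a developmental regulator; these genes were named after their values were seen. The regions at Pou3f3, Bcl11a, Irx2 and Zfp703 lay 210, 270, 356 and 593 bp from the start site. Those near Six3, Emx1 and Lhx2, homeobox factors of the forebrain, lay 1583, 1769 and 2828 bp from the start. The region near Six3, which holds the start of the lincRNA Six3os1, adjoined an NSC H3K27me3 peak (0 bp) and that near Emx1 was 600 bp from one, while those near Pou3f3 and Bcl11a were 2015600 and 2080200 bp away. Dll4, a Notch ligand, had such a region 2120 bp from its start and 1600 bp from NSC H3K27me3.

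The 218 regions formed 9 groups of neighbours less than 50 kb apart, with 19 regions in all. Apart from those near Cdkn2a, Bmi1 and Mga, they were pairs near Nrp2, Tbx15, En2, Bcl11a, Hlf and Hoxc4. The pair near Bcl11a shared 1 ESC Ring1b peak and lay under all of the ESC lists, and the pair at Hlf, a PAR bZIP factor, lay over ESC H3K27me3 alone. The pair near Hoxc4 lay over none of the ESC lists, 2800 and 22000 bp from NSC H3K27me3.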
